A study of Mus musculus with 6 samples.

Results

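The bile and organic anion transporters of the mouse hepatocyte are described here, as 10 genes chosen by name: the uptake carriers *Slc10a1*, *Slco1a1*, *Slco1b2* and *Slco2b1* and the export pumps *Abcb11*, *Abcb4*, *Abcc2*, *Abcg5*, *Abcg8* and *Abcc3*. Of these, 9 had a row of their own among the 13725 named genes of the array table, each with 1 row. No row used here named *Abcg8*, which was not analysed. Primary hepatocytes were isolated from wild-type C57BL/6 mice of 8 to 12 weeks (males of the C57BL/6N substrain in the methods) and cultured on collagen-coated plates. Cells were kept under hypoxia (1% O2) and under normoxia (19.5% O2) for 72 h according to the labels, so that 6 arrays were measured, 3 per condition. Replicates are numbered 1 to 3 in each condition, and arrays of the same number are taken here as those of 1 mouse. The study's text gives a shorter exposure and a slightly different normoxic oxygen level, and the values do not settle which holds. Both conditions shared a medium without serum or, per the methods, dexamethasone during the exposure, so that each value describes plated cells and not the liver in place.

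Hepatocytes take up bile acids and other organic anions from blood through carriers of their basolateral (sinusoidal) membrane, and pump bile acids, phospholipid, sterols and conjugates into the bile canaliculus through ATP-driven transporters of the apical membrane. Bile flow depends on both steps, and loss of single canalicular pumps causes inherited cholestasis in people. Transporter mRNA in hepatocytes is known to depend on nuclear receptors such as FXR and PXR and on liver factors such as HNF4A, and to decline when the cells are plated.

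All values are RMA expression on the log2 scale, for which the arrays are background-corrected, brought to 1 distribution and summarised per transcript, and a difference of 1 is a doubling. Each gene was tested with limma over all 15443 rows, and a gene was called higher or lower under hypoxia where its Benjamini-Hochberg adjusted p was below 0.05. Array medians lay between 7.42 and 7.49. Hypoxic arrays correlated with one another at 0.903 to 0.938 across rows and normoxic arrays at 0.958 to 0.963. Of 12 known hypoxia targets, 11 were higher and none was lower, beside 15.5% higher and 23.9% lower over all rows. *Ndrg1* was higher by 1.91 (standard error 0.18, adjusted p = 0.0007409 from limma), while *Car9* did not pass (log2 difference 0.04, adjusted p = 0.8758 from limma). Hepatocyte markers were bright on all arrays, at a mean level of 10.85 to 10.99 under hypoxia and 10.36 to 10.51 under normoxia over 17 genes.

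The calls among uptake genes and among export genes had opposite signs, a difference that was not itself tested. Among the 4 uptake carriers 3 were higher under hypoxia, none was lower and 1 did not pass, whereas among the 5 measured export pumps none was higher, 2 were lower and 3 did not pass. Over all rows, 15.5% were called higher and 23.9% lower, and the counts of the transporters have to be read against these shares. Without any threshold, all hypoxic arrays lay above all normoxic arrays for 4 of the 9 genes and below them for 2, against 22.4% and 31.9% of all rows. These are counts over few genes, and no test was made over the list.

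**Figure D1:**
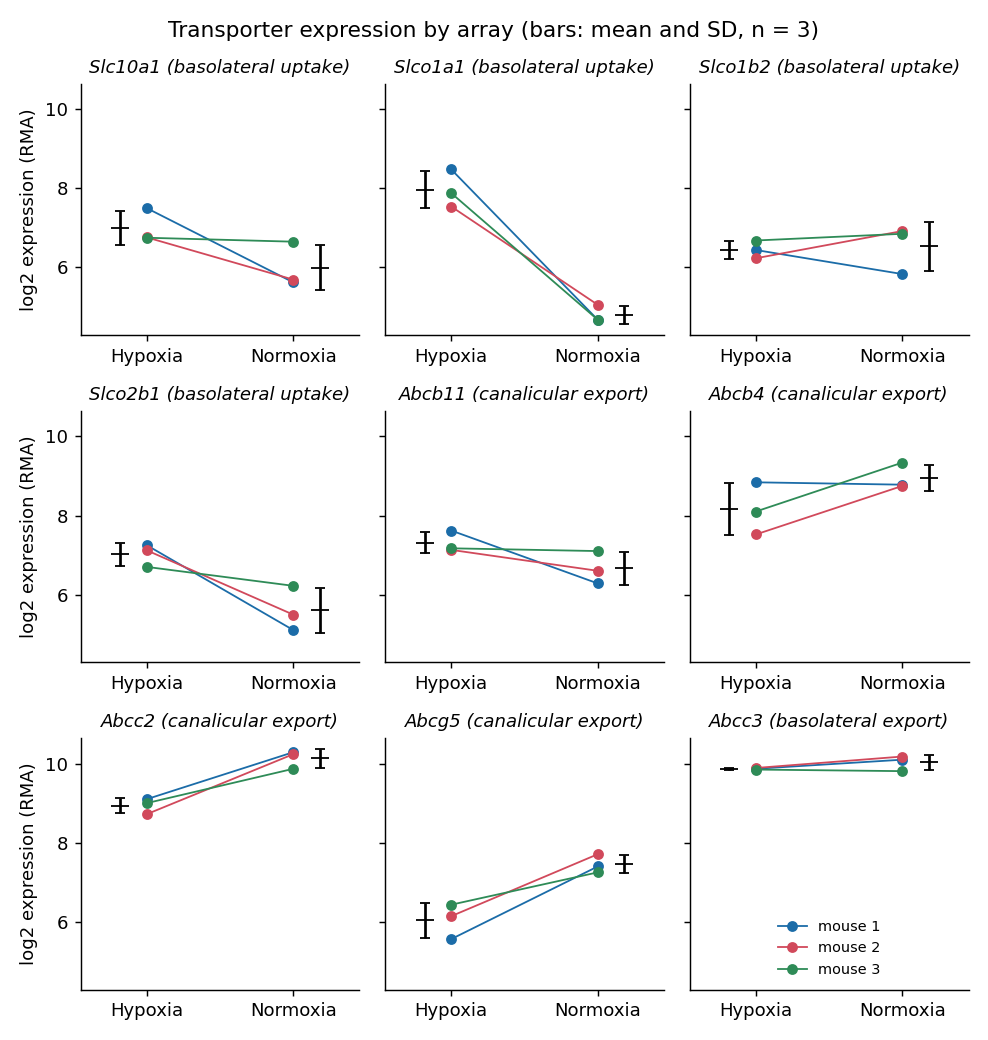
RMA expression on the log2 scale (vertical axis) of the 9 measured transporters under hypoxia (left) and normoxia (right), with 1 point per array, lines joining the arrays of a mouse, and bars for mean and SD (n = 3). *Slco1a1* shows the widest gap between the conditions, *Abcc2* and *Abcg5* lie lower in the hypoxic cells of all 3 mice, and for *Slc10a1* and *Abcb11* the cells of mouse 3 hardly differ.

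The promoters of 4 transporters are shown: those of the largest rise (*Slco1a1*) and of both falls that passed (*Abcc2* and *Abcg5*), and, for comparison, that of the bile salt pump *Abcb11*, which did not pass and whose difference had the sign opposite to these falls. Each line gives the 250 bases before the RefSeq start in GRCm38.p6, and capitals mark matches, on either strand, to the searched motifs, among them AGGTCA (a nuclear receptor half-site), CAAAGT (an HNF4A core) and AGATAA (bound by GATA factors). The hypoxia response element was searched by its core ACGTG, and also in the form GCGTG. *Slco1a1* lies at chr6:141946963-141947212 on the minus strand, *Abcb11* at chr2:69342617-69342866 on the minus strand, *Abcc2* at chr19:43782058-43782307 on the plus strand and *Abcg5* at chr17:84683012-84683261 on the minus strand.
Slco1a1: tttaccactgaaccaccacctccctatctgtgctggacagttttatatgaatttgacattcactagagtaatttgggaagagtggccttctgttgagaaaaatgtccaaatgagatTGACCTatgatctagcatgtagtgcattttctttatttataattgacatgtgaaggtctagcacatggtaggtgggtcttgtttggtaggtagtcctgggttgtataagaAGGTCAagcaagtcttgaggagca
Abcb11: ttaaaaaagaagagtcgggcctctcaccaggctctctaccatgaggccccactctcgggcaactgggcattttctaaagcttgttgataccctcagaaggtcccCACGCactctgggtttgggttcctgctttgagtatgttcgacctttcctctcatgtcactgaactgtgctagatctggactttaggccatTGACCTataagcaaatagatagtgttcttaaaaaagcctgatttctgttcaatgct
Abcc2: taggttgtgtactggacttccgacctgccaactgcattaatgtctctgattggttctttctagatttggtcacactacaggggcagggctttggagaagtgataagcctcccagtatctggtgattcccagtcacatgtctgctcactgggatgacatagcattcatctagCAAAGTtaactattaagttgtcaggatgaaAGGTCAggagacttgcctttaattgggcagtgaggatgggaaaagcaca
Abcg5: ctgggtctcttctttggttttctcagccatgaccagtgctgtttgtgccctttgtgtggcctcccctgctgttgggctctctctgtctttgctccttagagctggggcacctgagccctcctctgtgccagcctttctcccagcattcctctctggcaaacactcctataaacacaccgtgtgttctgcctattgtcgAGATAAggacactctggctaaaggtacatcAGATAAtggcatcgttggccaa

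The *Slco1a1* promoter holds AGGTCA at position -134 (opposite strand) and -24, counted from the start. In *Abcb11* the capitals are GCGTG at -146 and AGGTCA at -56, both on the opposite strand. *Abcc2* has CAAAGT at -79 and AGGTCA at -49. *Abcg5* has AGATAA at -52 and -22 and, past the start and not printed, at 13 on the opposite strand. Its window of 300 bases, which runs 50 bases past the start, shares 209 bases with that of *Abcg8* on the other strand. The motifs were searched in windows of this length, of which 9 of the 10 genes had 13 in all, and *Abcc3* had none in the table. AGGTCA was found in 5 of the 13 (16.3% of all 32851 windows), CAAAGT in 3 (14.4%), AGATAA in 2 (11.2%) and GCGTG in 3 (32.4%). The 2 windows with AGATAA are the overlapping ones of *Abcg5* and *Abcg8*, which hold the same sites read from opposite strands. ACGTG was found in none of the 13 and in 19.6% of all windows. These letters are a description of the sequence, and binding was not measured.

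*Slco1a1* encodes Oatp1a1, a sinusoidal carrier for bile acids, steroid conjugates and other organic anions. Its log2 expression was 8.48, 7.54 and 7.88 in the hypoxic hepatocytes of mouse 1, 2 and 3, against 4.67, 5.05 and 4.67 in their normoxic hepatocytes. All hypoxic arrays lay above all normoxic ones, with a gap of 2.49 between the nearest. The means were 7.97 ± 0.47 under hypoxia and 4.79 ± 0.22 under normoxia (SD, n = 3 each), a log2 difference of 3.18 (standard error 0.25, 95% interval 2.58 to 3.77, adjusted p = 0.0004792 from limma). This is a 9.03-fold difference and the rise ranked 20 of all rows. The normoxic values were among the lowest 0.398 percent of rows on each normoxic array, where an RMA value says little of the true level, so that the size of the fold is less sure than its direction. The call held in all 17 alternatives that tested the row (1 of them, the mean of its rows, could not change it), with log2 differences from 2.86 to 3.52.

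*Slco2b1* encodes Oatp2b1, a carrier of steroid sulphates and drugs with a broad tissue distribution. Log2 expression was 7.25, 7.12 and 6.70 under hypoxia, against 5.10, 5.49 and 6.22 under normoxia, in the order of the mice. The groups did not overlap, and the nearest arrays, both of mouse 3, were 0.48 apart. Hypoxic expression averaged 7.02 ± 0.29 and normoxic expression 5.60 ± 0.57 (SD, n = 3 each), a log2 difference of 1.42 (standard error 0.30, 95% interval 0.72 to 2.12, adjusted p = 0.00949 from limma). Normoxic values lay between the 0.44 and 5.36 percentile of rows on those arrays, so that the size of the difference is less sure than its sign. Within mice the difference was 2.15, 1.64 and 0.48. Without mouse 2 the gene no longer passed (log2 difference 1.31, adjusted p = 0.09376 from limma).

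*Slc10a1* encodes Ntcp, the sodium-dependent carrier that takes up most conjugated bile acids. Its values were 7.50, 6.76 and 6.75 under hypoxia, against 5.62, 5.69 and 6.65 under normoxia. The conditions were separated by only 0.10, since the normoxic cells of mouse 3 came close to the hypoxic cells of mice 2 and 3. The means of 7.00 ± 0.43 under hypoxia and 5.99 ± 0.57 under normoxia (SD, n = 3 each) differed by 1.02 on the log2 scale (standard error 0.33, 95% interval 0.24 to 1.79, adjusted p = 0.04436 from limma), a 2.02-fold difference. The difference was 1.88 in mouse 1, 1.07 in mouse 2 and 0.10 in mouse 3. On the normoxic arrays the row lay between the 1.37 and 16.2 percentile, so that the size of the difference is unsure. A fit that paired the arrays by mouse did not call the gene (adjusted p = 0.077 from limma), nor did it pass without any single hypoxic array, without the normoxic array of mouse 1 or 2, or without either of these mice (log2 differences of 0.58 to 1.47 over all alternatives, highest adjusted p = 0.2065 from limma). The call for *Slc10a1* was lost in 10 of 17 alternatives, more than for the other 4 of the 9 transporters that were called.

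*Slco1b2* encodes Oatp1b2, the mouse counterpart of the liver-specific human OATP1B carriers. Expression was 6.44, 6.23 and 6.68 under hypoxia and 5.83, 6.92 and 6.85 under normoxia. The groups overlapped, and the cells of mouse 1 moved opposite to those of mice 2 and 3. The log2 difference was -0.08 (standard error 0.30, adjusted p = 0.8469 from limma), and its 95% interval of -0.79 to 0.63 leaves room for a change of either sign. The row was dim, between the 6.3 and 20.1 percentile of the hypoxic arrays and the 2.26 and 27.2 percentile of the normoxic arrays. A difference that did not pass in so dim a row says little. *Slco1b2* and *Slco1a1* lie in the same cluster of Slco1 genes on chromosome 6, in which *Slco1a4* stands beside *Slco1a1*. *Slco1a4*, which encodes the carrier Oatp1a4, was 6.80, 6.88 and 6.41 under hypoxia, against 7.36, 8.12 and 7.82 under normoxia, and was called lower (log2 difference -1.07, standard error 0.23, adjusted p = 0.01014 from limma). It did not pass without mouse 2 or without mouse 3. Thus, 3 members of 1 gene cluster gave a rise, a fall and a value that did not pass.

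At the canalicular membrane, *Abcc2* encodes Mrp2, the pump for bilirubin glucuronides and glutathione conjugates. Its log2 expression was 9.10, 8.72 and 9.00 in hypoxic hepatocytes, against 10.29, 10.24 and 9.87 in normoxic hepatocytes. Each hypoxic array lay at least 0.77 below each normoxic array. Means were 8.94 ± 0.20 under hypoxia and 10.13 ± 0.23 under normoxia (SD, n = 3 each), and the log2 difference was -1.19 (standard error 0.17, 95% interval -1.60 to -0.78, adjusted p = 0.002645 from limma). Normoxic expression was thus 2.29 times the hypoxic expression. The row stayed bright under both conditions, between the 81.9 and 86.7 percentile of the hypoxic arrays and the 93.9 and 96.0 percentile of the normoxic arrays. The call held in all 18 alternatives, with log2 differences from -1.35 to -1.03.

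*Abcg5* encodes a transporter subunit that pairs with the product of *Abcg8* to secrete cholesterol and plant sterols into bile. Expression was 5.56, 6.14 and 6.43 under hypoxia, against 7.40, 7.71 and 7.25 under normoxia. The groups were 0.82 apart at their nearest, and the cells of all 3 mice were lower under hypoxia. The means of 6.04 ± 0.44 under hypoxia and 7.45 ± 0.23 under normoxia (SD, n = 3 each) gave a log2 difference of -1.41 (standard error 0.24, 95% interval -1.98 to -0.84, adjusted p = 0.004693 from limma), with normoxic expression 2.66 times the hypoxic expression. The hypoxic values lay between the 2.28 and 12.1 percentile of rows on those arrays, so that the size of the fold is less sure than its direction. Without mouse 2 the difference was -1.33 and did not pass (adjusted p = 0.05408 from limma). The partner gene *Abcg8* could not be set beside it.

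*Abcb11* encodes Bsep, the bile salt export pump, which sets the rate of bile acid secretion. Its values were 7.62, 7.13 and 7.17 under hypoxia, against 6.28, 6.60 and 7.10 under normoxia. The hypoxic arrays were all above the normoxic ones, but by only 0.03 at the nearest. The log2 difference of 0.65 (standard error 0.24, 95% interval 0.08 to 1.22) did not pass after adjustment (adjusted p = 0.06992 from limma). It was 1.35 in mouse 1, 0.52 in mouse 2 and 0.07 in mouse 3. The gene passed without the normoxic array of mouse 3 (log2 difference 0.87, adjusted p = 0.03359 from limma) and when arrays were centred on the brighter rows (0.71, adjusted p = 0.04995 from limma). *Abcb11* therefore stood apart from the other canalicular pumps in the sign of its difference, a contrast between pumps that was not itself tested.

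*Abcb4* encodes Mdr2, the flippase that delivers phosphatidylcholine to bile. It had values of 8.84, 7.52 and 8.10 under hypoxia, against 8.78, 8.75 and 9.34 under normoxia. The hypoxic and normoxic cells of mouse 1 differed by 0.06, while those of mice 2 and 3 were lower under hypoxia by 1.23 and 1.24. The log2 difference of -0.80 (standard error 0.34, 95% interval -1.60 to -0.01) did not pass (adjusted p = 0.09861 from limma). Without mouse 1 it was -1.23 and passed (adjusted p = 0.0284 from limma), as it did without the hypoxic array of that mouse (-1.15, adjusted p = 0.01287 from limma). With all arrays it passed when mouse was a block under trend and robust eBayes (adjusted p = 0.03531 from limma).

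*Abcc3* encodes Mrp3, which exports glucuronides and bile acids back across the basolateral membrane and is known to be induced when canalicular export is blocked. Expression was 9.87, 9.89 and 9.85 under hypoxia and 10.10, 10.18 and 9.81 under normoxia. The groups overlapped, and the hypoxic arrays lay within 0.04 of one another. The log2 difference was -0.16 (standard error 0.14, adjusted p = 0.4052 from limma). Its 95% interval of -0.50 to 0.18 ends below the differences measured for *Slc10a1*, *Slco2b1* and *Slco1a1*.

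**Figure D2:**
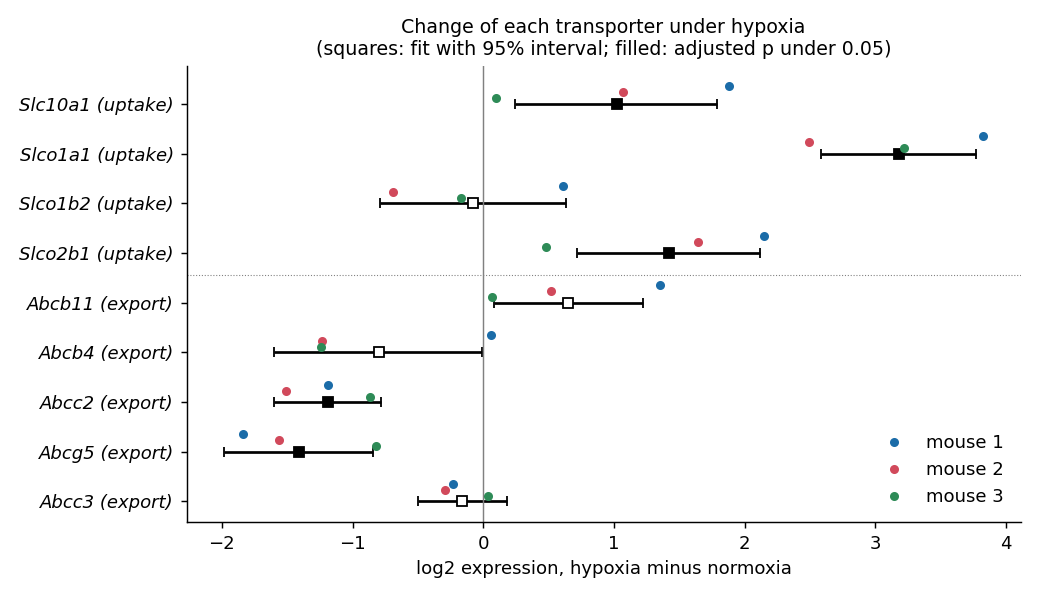
Log2 difference of each transporter, hypoxia minus normoxia (horizontal axis), with its 95% interval from limma and the differences of the 3 mice as points. The intervals of *Slco1a1*, *Slco2b1*, *Abcc2* and *Abcg5* lie well away from 0, while those of *Slco1b2* and *Abcc3* span it.

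Set side by side, the 4 uptake carriers had a median log2 difference of 1.22 (range -0.08 to 3.18) and the 5 pumps one of -0.80 (range -1.41 to 0.65), beside -0.047 over all rows. The mean over the uptake carriers was 2.11 in mouse 1, 1.13 in mouse 2 and 0.91 in mouse 3. Over the pumps it was -0.37, -0.81 and -0.56 in the same mice. The uptake mean exceeded the export mean in the cells of all 3 mice, by 2.48, 1.94 and 1.47. *Slco1a1*, at 3.18, had the largest share in the uptake mean, and *Slco1b2*, at -0.08, the smallest. Bulk arrays cannot tell fewer cells of a type from less RNA per cell, and this holds for each value given.

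Brightness also differed between the classes. All 4 uptake carriers and *Abcg5* fell in the dimmest 25 percent of rows by their mean over arrays, whereas *Abcc2* and *Abcc3* were among the brighter rows. The uptake carriers lay between the 6.30 and 77.2 percentile of the hypoxic arrays and between the 0.0939 and 27.2 percentile of the normoxic arrays. Differences of dim rows tend to be compressed on arrays, and the part of this in the contrast between the classes was not tested.

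With replicate numbers read as mice, each mouse gave 1 array per condition, so that a difference between mice cannot be told from one between arrays. *Slc10a1*, *Slco2b1*, *Abcb11* and *Abcb4* had their highest normoxic value in mouse 3 and their highest hypoxic value in mouse 1. After the group means were taken off, the values of *Slc10a1* and *Abcb11* followed each other over the 6 arrays with r = 0.96, those of *Slco2b1* and *Abcb11* with r = 0.90 and those of *Slc10a1* and *Slco2b1* with r = 0.87. These were the highest values among all pairs of the measured transporters. The lowest were -0.77, for *Slc10a1* with *Abcg5* and with *Abcc3*. These are descriptions over 6 arrays that share normalization and, as read here, mice. Ntcp and Bsep both carry bile acids, at opposite poles of the cell, and a link of this to the correlation of their mRNAs was not tested. Over the arrays as measured, the named genes most like *Slc10a1* were *Snord89*, *Mapk6* and *Pklr* (r = 0.993 each), and those most like *Abcb11* were *Emc2* (r = 0.994), *Mapk6* (r = 0.991) and *4930562C15Rik* (r = 0.989).

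**Figure D3:**
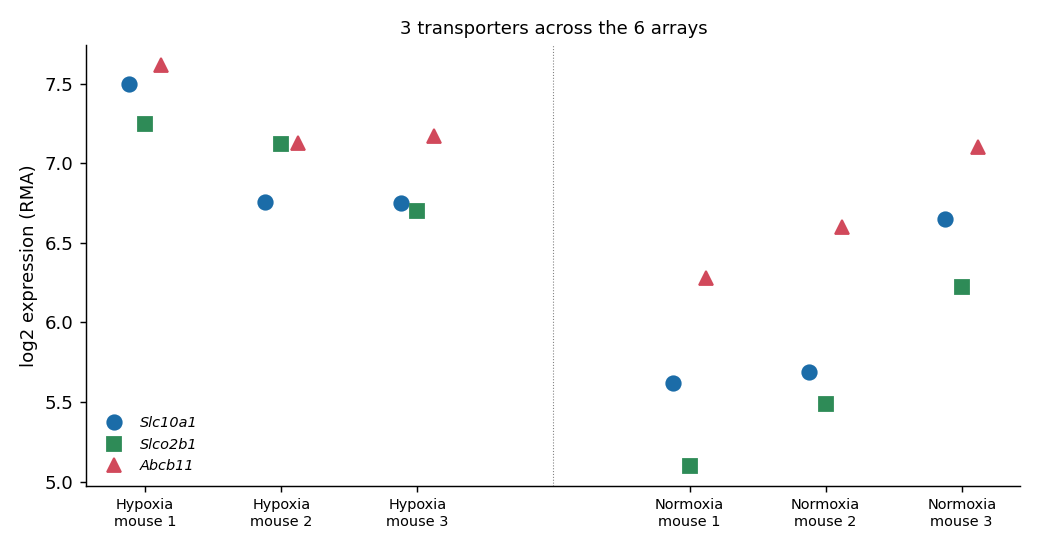
RMA expression on the log2 scale (vertical axis) of *Slc10a1*, *Slco2b1* and *Abcb11* on each of the 6 arrays (horizontal axis, hypoxic arrays left of normoxic arrays, mice 1 to 3 in each). The 3 genes are highest in the hypoxic cells of mouse 1, lowest in the normoxic cells of mouse 1, and in mouse 3 nearly level between the conditions for *Slc10a1* and *Abcb11*.

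Of 18 measured genes of further uptake carriers 2 were higher, 5 lower and 11 did not pass, with a median of -0.07. These counts are near the shares over all rows (15.5% higher and 23.9% lower). *Slc27a5*, the bile acid CoA ligase and fatty acid transport protein 5, was higher by 1.49 (standard error 0.19, adjusted p = 0.00171 from limma). It is counted again in the list of bile acid synthesis below. *Slc10a6*, a carrier of sulphated steroids in the family of Ntcp, was higher by 1.36 (standard error 0.19, adjusted p = 0.002446 from limma). *Slc22a23*, an orphan of the organic ion carrier family, was lower (log2 difference -1.32, standard error 0.20, adjusted p = 0.002883 from limma). Without mouse 2, only 1 of the 5 lower calls in this list was left, and without mouse 3 only 2. Lower calls over all 15443 rows fell too, from 3698 to 1306 without mouse 2 and to 1726 without mouse 3.

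Among 23 other export pumps and flippases 3 were higher, 5 lower and 15 did not pass (median -0.23), again near the 15.5% and 23.9% of all rows. *Abca1*, which loads cholesterol onto apolipoprotein A-I, was lower (log2 difference -1.03, standard error 0.14, adjusted p = 0.002173 from limma), and it passed in every alternative at this threshold. *Abcc4*, the basolateral pump Mrp4, was 6.54, 6.85 and 6.95 under hypoxia, against 8.68, 8.29 and 7.05 under normoxia. Its log2 difference of -1.23 (standard error 0.39, adjusted p = 0.04242 from limma) did not pass in the fit paired by mouse (adjusted p = 0.06625 from limma) or without mouse 1 or mouse 2. *Abcg1*, a cholesterol exporter, was higher by 1.25 (standard error 0.31, adjusted p = 0.01878 from limma), but did not pass in the paired fit (adjusted p = 0.05285 from limma). In the paired fit this list had 1 gene higher and 3 lower, without mouse 2 it had 2 higher and 1 lower, and without mouse 3 it had 0 higher and 3 lower (limma). Over all 15443 rows, the paired fit called 2047 higher and 3099 lower. The fit without mouse 2 called 852 and 1306, and that without mouse 3 called 1193 and 1726.

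Genes that make and conjugate bile acids moved in both directions, with 6 higher, 6 lower and 4 not passing of 16 measured (median -0.09), beside 15.5% and 23.9% of all rows. *Baat*, which joins bile acids to taurine or glycine, was 5.69, 4.58 and 4.97 under hypoxia, against 7.82, 8.10 and 7.96 under normoxia (log2 difference -2.88, standard error 0.28, adjusted p = 0.0007409 from limma). The hypoxic values of *Baat* were near the dim normoxic values of *Slco1a1* (4.67 to 5.05), so that the size of this fall is unsure. The *Baat* relatives *Acnat2* and *Acnat1* were lower too (log2 differences -3.16 and -1.96), and so was *Cyp39a1*, a hydroxylase of oxysterols (-2.19). Hypoxic values of *Acnat1* were low as well (5.68 to 5.77). By contrast, *Fabp1*, the fatty acid and bile acid binding protein of the cytosol, was higher by 3.17 (with its mean over arrays at the 0.686 percentile of rows, so that the size of this difference is unsure), *Akr1d1*, the steroid reductase of the synthesis pathway, by 2.15, and *Cyp46a1*, a cholesterol hydroxylase, by 1.85. These 7 genes passed in every alternative at this threshold that tested them. Thus the conjugating enzyme *Baat* and the ligase *Slc27a5*, which act in sequence, had differences of opposite sign.

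Of 24 measured regulators of these transporters, 14 were lower, 2 higher and 8 did not pass, with a median of -0.85, beside 23.9% lower and 15.5% higher over all rows. Without mouse 2 the list had 9 lower and 1 higher, and without mouse 3 it had 10 lower and 1 higher. Of all 15443 rows, 1306 were lower and 852 higher without mouse 2, and 1726 and 1193 without mouse 3. *Nfe2l2*, whose product NRF2 drives *Abcc2* and *Abcc3* in mouse liver, was lower (log2 difference -1.65, standard error 0.12, adjusted p = 0.0004149 from limma), and so were *Foxa1* (-1.37), *Ahr* (-1.28) and *Cebpa* (-1.17). *Nr1h4*, which encodes the bile acid receptor FXR and is known to drive *Abcb11*, was 7.08, 6.90 and 6.95 under hypoxia, against 7.84, 8.19 and 8.49 under normoxia (log2 difference -1.20, standard error 0.19, adjusted p = 0.00331 from limma). It did not pass without mouse 2 (adjusted p = 0.05187 from limma). *Fgfr4*, the hepatocyte receptor for the intestinal signal that restrains bile acid synthesis, was higher by 1.22 (standard error 0.16, adjusted p = 0.002046 from limma). Protein levels and activity of these factors were not measured on the arrays.

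Among 32 genes of the canalicular scaffold, of vesicle traffic to it and of tight junctions, 16 were lower, 3 higher and 13 did not pass (median -0.46), beside 23.9% lower and 15.5% higher over all rows. *Vipas39*, which with *Vps33b* brings proteins to the canaliculus, was lower (log2 difference -1.15), as were *Cldn2*, a pore-forming claudin (-1.61), *Mal2*, a protein of transcytosis (-1.09), and *Tjp1*, a tight junction scaffold (-0.81). *Cldn1*, a sealing claudin, was higher by 1.06 and *Stx3*, an apical syntaxin, by 0.92. Without mouse 2 only 4 genes of this list were lower and 1 higher, and without mouse 3 there were 6 lower and 2 higher. Calls over all 15443 rows fell as well, to 1306 lower and 852 higher without mouse 2. Without mouse 3 they fell to 1726 lower and 1193 higher. In the list of sterol handling genes around *Abcg5* and *Abcg8*, 4 of 16 were lower and 2 higher (median 0.15), near the shares over all rows (23.9% and 15.5%). Among them were *Cd36*, a fatty acid and lipoprotein receptor (log2 difference -2.05), and *Lcat*, the cholesterol-esterifying enzyme of plasma (1.50).

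**Figure D4:**
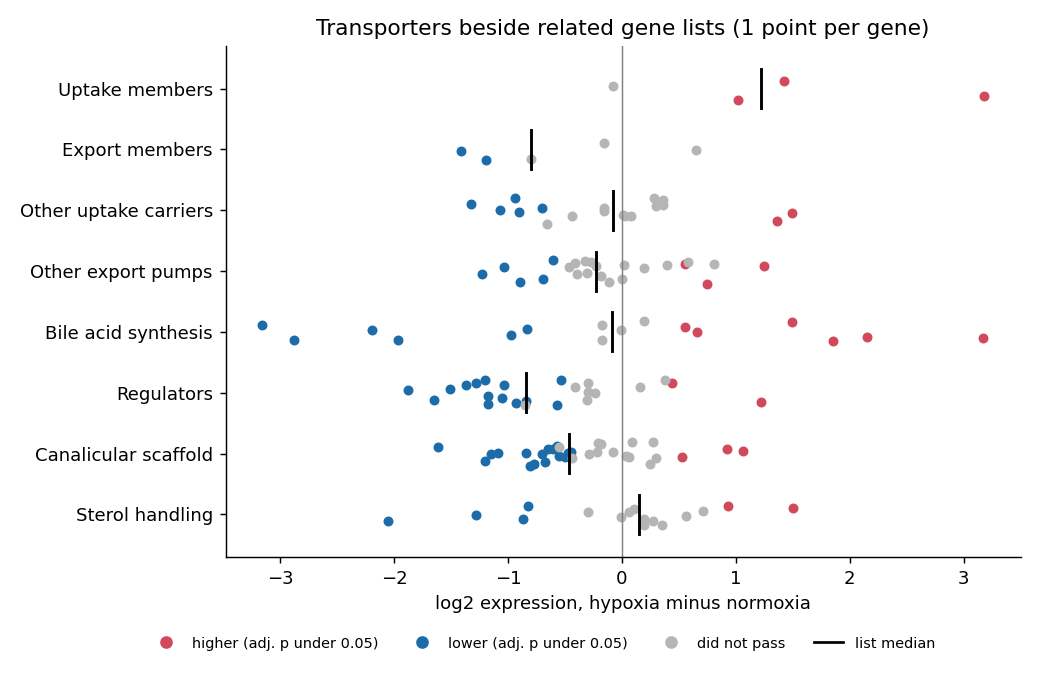
Log2 difference, hypoxia minus normoxia (horizontal axis), of each measured gene in the uptake and export members and in 6 related lists (vertical axis), with colours for the limma call and a bar for each list's median. The uptake members have a median of 1.22, while the lists of regulators and of the canalicular scaffold have medians of -0.85 and -0.46.

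Markers of other liver cells were measured beside the transporters. Sinusoidal endothelial markers averaged 7.43 to 7.51 under hypoxia and 7.04 to 7.20 under normoxia over 13 genes, with 7 higher and 2 lower, beside 15.5% and 23.9% of all rows. Without mouse 2 there were 3 higher and 0 lower, and without mouse 3 there were 4 higher and 0 lower (limma). Of all 15443 rows, 852 were higher and 1306 lower without mouse 2, and 1193 and 1726 without mouse 3. Cholangiocyte markers, whose cells also bear transporters of bile acids, averaged 7.52 to 7.95 under hypoxia and 7.85 to 8.32 under normoxia over 10 genes (2 higher, 3 lower). Kupffer cell markers averaged 7.04 to 7.35 under hypoxia and 7.23 to 7.34 under normoxia over 10 genes (2 higher, 3 lower). Stellate cell markers averaged 6.97 to 7.49 under hypoxia and 7.05 to 7.10 under normoxia over 12 genes (1 higher, 1 lower). Of 17 hepatocyte markers 8 were higher and 4 lower (median 0.34). The part of any change in cell mixture in the differences of the transporters was not tested.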

How the data were processed

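RNA of hypoxic and normoxic hepatocytes was measured on 6 arrays (Affymetrix Mouse Gene 2.0 ST), in 3 replicates read here as 3 mice. The deposited values are log2 RMA expression, which the authors computed with oligo, per the methods and the submitters' processing notes. The rule behind the 15443 rows is not given in the sources used here, and the table holds no detection calls. Precision is therefore judged from standard errors and intervals over the arrays, and dimness from the level or percentile of a row. No array was left out.

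Row symbols came from the platform annotation, and 13711 of 13730 symbols matched RefSeq names, of which 1276 were updated. The row with the highest mean stood for each gene. Rows were tested with lmFit and eBayes of limma (version 3.58.1, run in R 4.3.3), with the condition as the only term, Benjamini-Hochberg adjustment and a threshold of 0.05, after the script had been tested on simulated data. Exact permutation tests are not printed, since their smallest two-sided p is 0.1 with 3 arrays per condition. Each replicate number occurs in both conditions and is read here as 1 mouse, so that the arrays can be paired. Deviations from the group means correlated little between the arrays of a number (-0.109, 0.018 and 0.105). The methods name no block, and the fit with mouse as replicate block was an alternative. Others were trend and robust eBayes, leaving out the dimmest 25 percent of rows, rows with 1 symbol, quantile normalization again, centring on brighter rows, a threshold of 0.01, the mean of a gene's rows, and leaving out each array or mouse.

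Named are all members, the 3 genes most like *Slc10a1* and *Abcb11*, and exceptions a sentence needs (*Nr1h4*, after its value was seen). *Ndrg1*, which the paper used as its hypoxia marker, and *Vps33b*, named as the partner of *Vipas39*, were also named outside the rule that follows. Other genes were drawn from the up to 4 per list and direction with the smallest adjusted p. Not all of these are named, and a named gene need not have the smallest. Members and lists were chosen with earlier results of these data known.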

Additional observations from a re-analysis of the deposited data

How the results depend on the processing

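With the mouse as a replicate block, 2047 rows were higher and 3099 lower under hypoxia, and 2 transporters were higher and 2 lower, the loss being *Slc10a1*. At an adjusted p below 0.01, 1126 rows were higher and 1944 lower (limma). Leaving out the dimmest 25 percent of rows left 0 transporters higher and 1 lower, because the 4 uptake rows and *Abcg5* are then not tested. Leaving out 1 array or 1 mouse at a time gave 852 to 3114 rows higher and 1306 to 4131 lower, 1 to 4 transporters higher and 1 to 3 lower, an uptake median of 0.82 to 1.68 and an export median of -1.19 to -0.48. The lowest counts of rows came without mouse 2, where 1 transporter was higher (*Slco1a1*) and 1 lower (*Abcc2*). The balance of 3 transporters higher and 2 lower did not hold throughout. It was 2 and 3 with the block under trend and robust eBayes, without mouse 1, and without its hypoxic array alone. *Abcb4* was the added lower call each time. The difference of *Slco1b2*, which did not pass, turned sign in 5 of 17 alternatives (-0.44 to 0.22). Each transporter has 1 row, so that the mean of a gene's rows changed nothing and gave no count over all rows. It is still included in the 17 or 18 alternatives counted per transporter, where it could not change a call. No class median was taken without the dimmest rows, since few members are left. Rows without detection calls and 3 mice limit what can be said of dim genes.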
